A study of Mus musculus with 192 samples.

Results

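The MHC class II presentation genes were followed in mouse dendritic cells, sentinel cells of the immune system that were raised here from bone marrow in GM-CSF, a growth factor. The members are 8 genes, taken by name from the 23481 gene rows of a table of unique molecular identifier (UMI) counts: H2-Aa, H2-Ab1, H2-Eb1, H2-DMa, H2-DMb1, H2-DMb2, Cd74 and Ciita. Of these, 7 had at least 1 count and 6 passed the filter on low counts and were tested. The cells came from female C57BL/6J mice of 6 to 8 weeks, were plated at 100000 per well and were kept with their stimulus for 6 h. The 64 groups of 3 libraries were a group named Ctrl, each of 7 ligands of pattern recognition receptors alone, all 21 pairs and all 35 triplets. The ligands carry the names PAM, LPS (lipopolysaccharide), HMW, Zymosan (zymosan depleted in the full label), SeV, cGAMP (3',3'-cGAMP, a cyclic dinucleotide) and CpGB; no dose is stated, what Ctrl received is not stated, and all groups share the culture in GM-CSF. The labels do not say whether the 3 libraries of a group came from separate mice or cultures, so p-values measure the spread between these libraries, which may be technical.

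MHC class II molecules show peptides from engulfed material to CD4+ T cells. Each is a pair of an alpha and a beta chain: in this mouse strain I-A is made from H2-Aa and H2-Ab1, and the I-E beta chain comes from H2-Eb1, whose alpha chain partner is not made in this strain. The invariant chain, encoded by Cd74, fills the groove of new class II molecules and guides them to endosomes, where the DM heterodimer of H2-DMa with an H2-DMb chain helps exchange its last fragment for a peptide. Ciita encodes the transactivator that switches on class II genes, and it acts through factors bound to the X and Y boxes of their promoters. Dendritic cells that sense microbes are known to move class II molecules to the surface and to slow their turnover, which can happen without more class II mRNA.

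The promoter letters of the genes on which the results turn are shown because the chain genes H2-Aa and H2-Eb1 kept a steady level and because H2-DMb1 and H2-DMb2, a pair of neighbouring genes for the DM beta chain, differed in whether any UMI was counted. The stretches run 5′ to 3′ on the strand of each gene, from RefSeq on GRCm38.p6, the assembly behind the mm10 build of the submitters' processing notes. Capitals mark GNAAC, a core of the X box, and ATTGG, the Y box (the reverse complement of CCAAT).
H2-Aa: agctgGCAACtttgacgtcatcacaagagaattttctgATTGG
H2-Eb1: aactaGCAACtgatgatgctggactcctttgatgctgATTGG
H2-DMb1: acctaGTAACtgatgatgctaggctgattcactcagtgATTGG
H2-DMb2: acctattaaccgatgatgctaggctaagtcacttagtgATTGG
They lie on chromosome 17, ahead of the annotated start used in that table, at chr17:34287867-34287909 on the minus strand for H2-Aa and, on the plus strand, at chr17:34305771-34305812 for H2-Eb1, chr17:34153092-34153134 for H2-DMb1 and chr17:34145121-34145163 for H2-DMb2.

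The starts of GNAAC and ATTGG were 33 bases apart in H2-Aa and H2-DMb1 and 32 apart in H2-Eb1. In H2-DMb2 the Y box letters were present and the GNAAC letters were not: against H2-DMb1, counted from 1 at the first printed base, the stretch carried G6T, T11C, G26A, T28G and C34T. Both genes are annotated as protein coding, H2-DMb2 at chr17:34143229-34151553 and H2-DMb1 at chr17:34153191-34160229. Of 32851 RefSeq promoter windows, each from 250 bases before to 50 after a start, 1.55% held GNAAC followed by ATTGG on either strand. The starts had to be 28 to 36 bases apart, a spacing chosen after the members were seen. For the genes named here only the gene's own strand was read, so the share is not a like measure. The letters CCAAT on either strand stood in 37.4% of windows. Neither of the 2 windows of H2-DMa, a gene with 4561 UMIs, held the spaced pair, while those of the class II genes H2-Oa, H2-Ob and H2-Eb2, with 149, 61 and 52 UMIs, did. The table matched 5 of the 8 members; H2-Ab1, Cd74 and Ciita are named only. The starts used for the windows of H2-DMb2 and H2-DMa lie inside the spans annotated for these genes, downstream of their first base. A match or its lack is a description of letters, not of binding.

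Libraries held 46564 to 610234 UMIs (median 171616), and the Ctrl libraries were among the shallow ones at 73431 ± 14389 (SD, n = 3). Levels are in CPM (counts-per-million) scaled by TMM, edgeR's trimmed mean of M-values. All calls came from the quasi-likelihood test of edgeR, adjusted by Benjamini-Hochberg over 4720 genes, and needed an adjusted p below 0.05 whatever the fold. The depth of the members was uneven: over all libraries H2-Aa had 82615 UMIs, H2-Ab1 59353, H2-Eb1 51301, Cd74 32770, H2-DMa 4561, H2-DMb1 2768, Ciita 160 and H2-DMb2 0. Together they took between 0.567% and 0.799% of a library's UMIs. The scaling of the libraries matters for small changes. Against the TMM values, the median log2 change of all genes versus Ctrl lay on average 0.18 lower with relative log expression (RLE) factors and 0.32 lower with library size alone. The TMM factors of Ctrl, 1.21 to 1.27, were at the top of the range of 0.862 to 1.27.

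The alpha and beta chain genes and the invariant chain held almost the same level in all 64 groups. Over the group means, H2-Aa ran from 2002 CPM in Ctrl to 2740 CPM in PAM + HMW + Zymosan. H2-Ab1 ran from 1406 CPM in HMW to 2195 CPM in PAM + HMW + SeV. H2-Eb1 lay between 1226 CPM in SeV and 1782 CPM in LPS + Zymosan, and Cd74 between 716 CPM in HMW and 1187 CPM in LPS + cGAMP + CpGB. The SD of the 64 group means was 0.0977 for H2-Aa, 0.113 for H2-Eb1, 0.149 for H2-Ab1 and 0.157 for Cd74 on the log2 CPM scale. Among the 774 genes averaging 200 CPM or more these were the 3rd, 13th, 70th and 81st lowest values, where the median gene had an SD of 0.375. The SDs include counting error, which is larger for genes with fewer UMIs, and the chain genes and Cd74 averaged 953 to 2410 CPM. How far the ranks follow abundance was not tested. With RLE or library size alone, alternatives chosen after seeing the data, H2-Aa had the lowest SD of the 774, and the other three ranked 5th and 2nd for H2-Eb1, 26th and 12th for H2-Ab1 and 37th and 14th for Cd74. The mean SD of the 3 single libraries inside a group was 0.0853 for H2-Aa, 0.111 for H2-Eb1, 0.0914 for H2-Ab1 and 0.130 for Cd74. These are bulk samples, so a change in RNA per cell and a change in the number of cells of a type cannot be told apart.

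**Figure D1:**
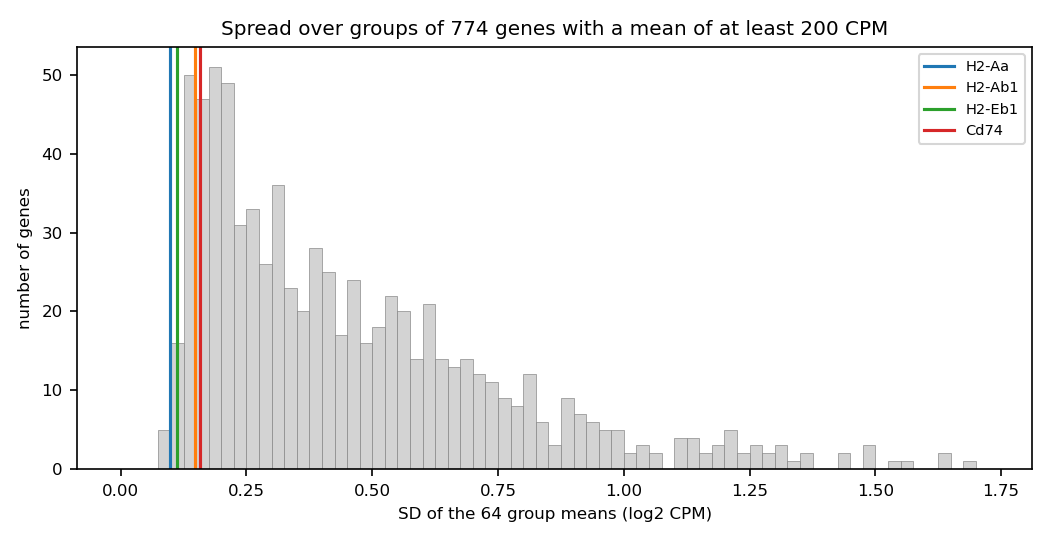
Number of genes (vertical axis) by the SD of their 64 group means in log2 CPM (horizontal axis), for the 774 genes averaging 200 CPM or more; coloured lines mark H2-Aa, H2-Ab1, H2-Eb1 and Cd74. The 4 lines stand at the left edge of the distribution, between 0.0977 and 0.157, against a median of 0.375.

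**Figure D2:**
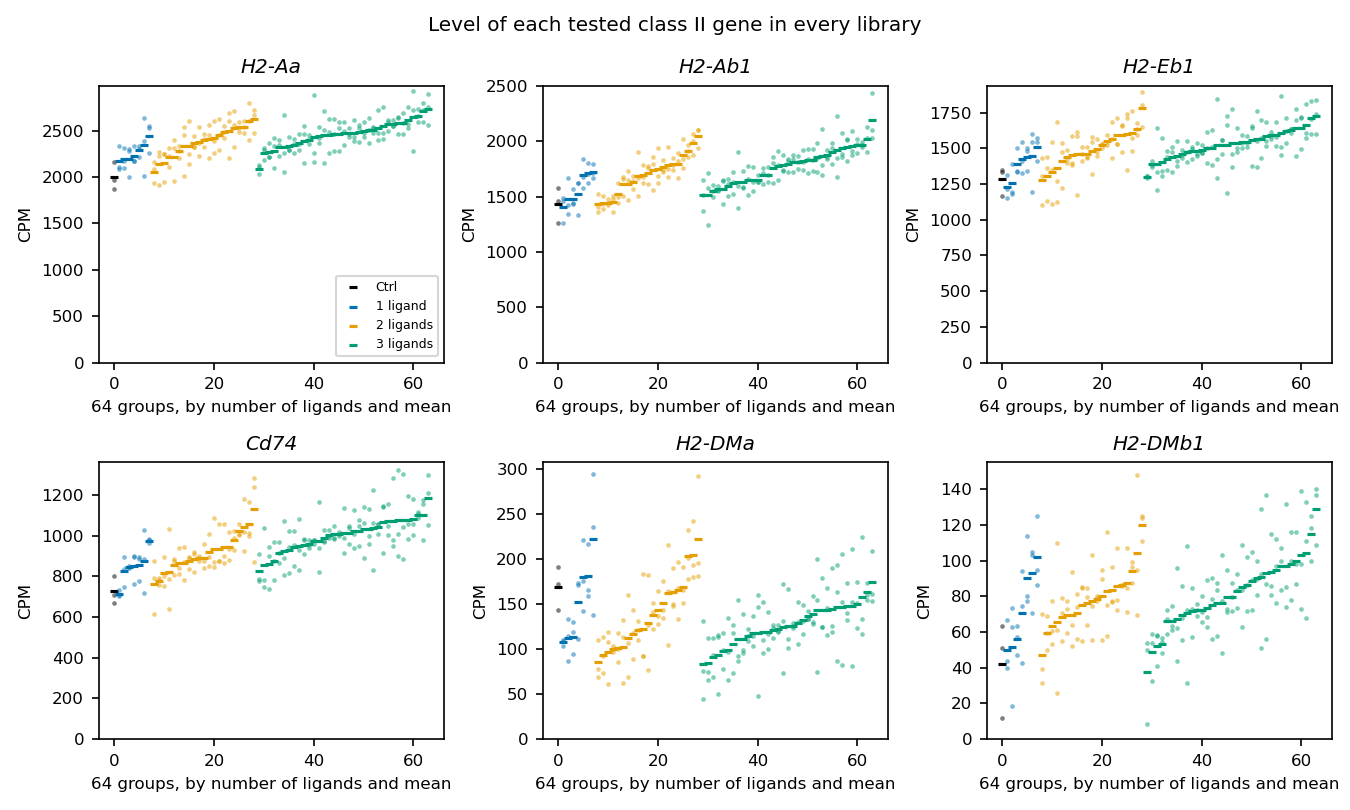
CPM (vertical axis, from 0) of the 6 tested members in every library; groups run along the horizontal axis from Ctrl to 1, 2 and 3 ligands, sorted by mean within each, with dots for libraries and dashes for group means. The chains and Cd74 form nearly flat bands, while H2-DMa and H2-DMb1 scatter widely at their lower counts.

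H2-Aa, the I-A alpha chain gene, stood at 1969, 2160 and 1877 CPM in the Ctrl libraries. With cGAMP its libraries gave 2526, 2263 and 2549 CPM, all above the 3 Ctrl libraries. This was its only call among the single ligands, a log2 change of 0.29 (SE 0.104, adjusted p = 0.0297, edgeR); without replicate 3 of Ctrl it was 0.26 and missed the threshold (adjusted p = 0.137). LPS (2220, 2306 and 2338 CPM) and PAM (2171, 2331 and 2179 CPM) also lay above Ctrl in all 3 libraries, with log2 changes of 0.20 and 0.16 that missed the threshold (adjusted p = 0.145 and 0.344, edgeR). In the order of means, Ctrl was lowest, then SeV, HMW, Zymosan, PAM, LPS, CpGB and cGAMP, and each group's libraries overlapped those of the next.

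H2-Ab1, its beta chain partner, gave 1575, 1464 and 1261 CPM in Ctrl. It was called higher only with LPS, at 1712, 1799 and 1667 CPM, a log2 change of 0.28 (SE 0.110, adjusted p = 0.0435, edgeR). Without replicate 2 or 3 of Ctrl, or 1 or 3 of LPS, it was 0.30, 0.20, 0.29 and 0.30 in turn (adjusted p = 0.0721, 0.287, 0.0629 and 0.0575). PAM (1675, 1842 and 1579 CPM) and CpGB (1808, 1622 and 1708 CPM) likewise had no library below the highest of Ctrl, and both had a log2 change of 0.26 with adjusted p of 0.0993 and 0.0800. The other 4 ligands overlapped Ctrl, with log2 changes from -0.02 to 0.09.

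H2-Eb1, the I-E beta chain gene, was called with no single ligand. Its Ctrl libraries gave 1334, 1164 and 1351 CPM, and the log2 changes ran from -0.07 with SeV to 0.23 with PAM. Only PAM, at 1412, 1543 and 1574 CPM, cleared all Ctrl libraries (adjusted p = 0.210, edgeR).

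Cd74 stood at 711, 804 and 671 CPM in Ctrl and at 980, 982 and 965 CPM with LPS. This log2 change of 0.43 (SE 0.147, adjusted p = 0.0177, edgeR) was the largest of a single ligand on a chain gene or Cd74. Without replicate 3 of Ctrl it was 0.38 (adjusted p = 0.105). cGAMP, at 848, 840 and 850 CPM, also stood above all Ctrl libraries with a log2 change of 0.22 (adjusted p = 0.319). HMW, at 734, 705 and 708 CPM, did not separate from Ctrl.

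Over the 6 tested members and 7 single ligands, 4 of 42 comparisons were called higher and none lower; the fourth was H2-DMb1 with PAM. Another 6 had an unadjusted p under 0.05. Over all genes, 10.7% of such comparisons were called higher and 6.38% lower. No single ligand changed the chain genes or Cd74 by 2-fold, and the 95% intervals of all 28 such changes stayed inside 2-fold in both directions (log2 -0.32 to 0.71). With RLE factors, with library size alone or with DESeq2 none of the 4 rises passed, and without replicate 1, 2 or 3 of Ctrl 6, 2 and 2 rises passed.

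The 56 combinations gave small rises with the same limits. Against Ctrl, H2-Aa was called higher in 10 pairs and 27 triplets, H2-Ab1 in 10 and 21, H2-Eb1 in 6 and 10, and Cd74 in 9 and 27, and none of these 4 genes was called lower. Over all genes and combinations 17.6% were called higher and 12.0% lower. The median log2 change over triplets was 0.31 for H2-Aa, 0.33 for H2-Ab1, 0.26 for H2-Eb1 and 0.48 for Cd74. The highest was Cd74 with LPS + cGAMP + CpGB, at 1297, 1210 and 1053 CPM, a log2 change of 0.70. All 56 comparisons share the same 3 Ctrl libraries, and the number of calls moved with those libraries and with the scaling. Without replicate 3 of Ctrl H2-Aa was called higher in 18 combinations, H2-Ab1 in 15, H2-Eb1 in 15 and Cd74 in 19, and without replicate 2 of Ctrl H2-Eb1 in 2. With RLE factors the triplet calls fell to 1 for H2-Aa, 3 for H2-Ab1, 0 for H2-Eb1 and 10 for Cd74, and with library size alone to 0, 0, 0 and 1, with median triplet changes of -0.05, -0.03, -0.09 and 0.15, so that the direction turned for the 3 chain genes. The result common to the 3 scalings is the size: in no combination did a chain gene or Cd74 differ from Ctrl by 2-fold.

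Averaging over matched backgrounds measured each ligand more finely. For each ligand, 66 libraries that held it (alone, with 1 other ligand, or with 2) were set against 66 libraries of the same 22 backgrounds without it, of which Ctrl is 1. Of 42 such effects on the members, 20 were called higher and 2 lower, where 21.2% and 19.5% of all gene effects were. The averaged effects on the 3 chain genes ran from -0.01 to 0.22 on the log2 scale.

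PAM had the largest averaged effect on H2-Ab1: the median library stood at 1875 CPM with PAM (1395 to 2442) and 1624 CPM without (1261 to 2072). The ranges overlapped widely, but 21 of 22 backgrounds were higher with PAM, and the log2 change was 0.22 (SE 0.0217, adjusted p = 4.22e-18, edgeR). PAM also raised H2-Aa by 0.10 and H2-Eb1 by 0.11 in this fit, the latter 0.07 and not called without the libraries numbered 3 (adjusted p = 0.0781, edgeR). Of the 3, only the rise of H2-Ab1 passed with library size alone (0.11), where H2-Aa was -0.00 and H2-Eb1 0.00.

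LPS had the largest averaged effect on Cd74, whose median library rose from 873 CPM (616 to 1182) without LPS to 1019 CPM (845 to 1305) with it. It was higher in 21 of 22 backgrounds, with a log2 change of 0.27 (SE 0.0282, adjusted p = 7.45e-18, edgeR). PAM raised Cd74 by 0.19 (20 of 22 backgrounds) and CpGB by 0.16 (19 of 22). These 3 rises of the invariant chain passed under all 3 scalings, at 0.17, 0.08 and 0.09 with library size alone; that with PAM was lost after thinning to the smallest library (0.06, adjusted p = 0.301, edgeR). The dendritic cell marker list moved with these ligands and with others. Of its 7 tested genes 3 were called higher and 2 lower with LPS, 4 and 1 with PAM, and 3 and 2 with CpGB. The counts were 4 and 0 with Zymosan, 2 and 4 with cGAMP, 2 and 1 with SeV and 1 and 0 with HMW. Of all genes 28.9% were called higher and 30.4% lower with LPS, 20.4% and 19.5% with PAM, and 20.6% and 16.4% with CpGB. The shares were 21.3% and 20.2% with Zymosan, 27.6% and 31.1% with cGAMP, 20.8% and 16.7% with SeV and 9.03% and 1.80% with HMW. Group sums of the list ran from 2082 to 2826 CPM with LPS and 1326 to 2649 without. With PAM they ran from 2231 to 2826 and without it from 1326 to 2788. With CpGB they ran from 2363 to 2826 and without it from 1326 to 2586. The chemokine genes Ccl17 and Ccl22 of that list rose by 1.06 to 1.66 with these 3 ligands. Itgax and Csf2ra fell with LPS (-0.39 and -0.29), Batf3 with PAM and CpGB (-0.55 and -0.45) and Csf2ra with CpGB (-0.10), and no gene of the list was at 0 throughout. Their part in the rises of Cd74 and the chain genes was not tested.

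cGAMP, which gave the only single-ligand call of H2-Aa, had no called effect on any member when averaged over backgrounds. H2-Aa was higher in 14 and lower in 8 of its 22 backgrounds, and the log2 change was 0.03 (SE 0.0209, adjusted p = 0.277, edgeR). The direction depended on scaling: with library size alone H2-Aa, H2-Ab1, H2-Eb1 and Cd74 were called lower with cGAMP, by -0.09, -0.12, -0.08 and -0.06, where the median of all genes was -0.16. The averaged effects of Zymosan, SeV and HMW on the chain genes ran from -0.01 to 0.09. Of these only H2-Aa and H2-Eb1 with Zymosan (0.07 and 0.08) and H2-Ab1 with HMW (0.09) were called. Each of these calls was lost without the libraries numbered 3.

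**Figure D3:**
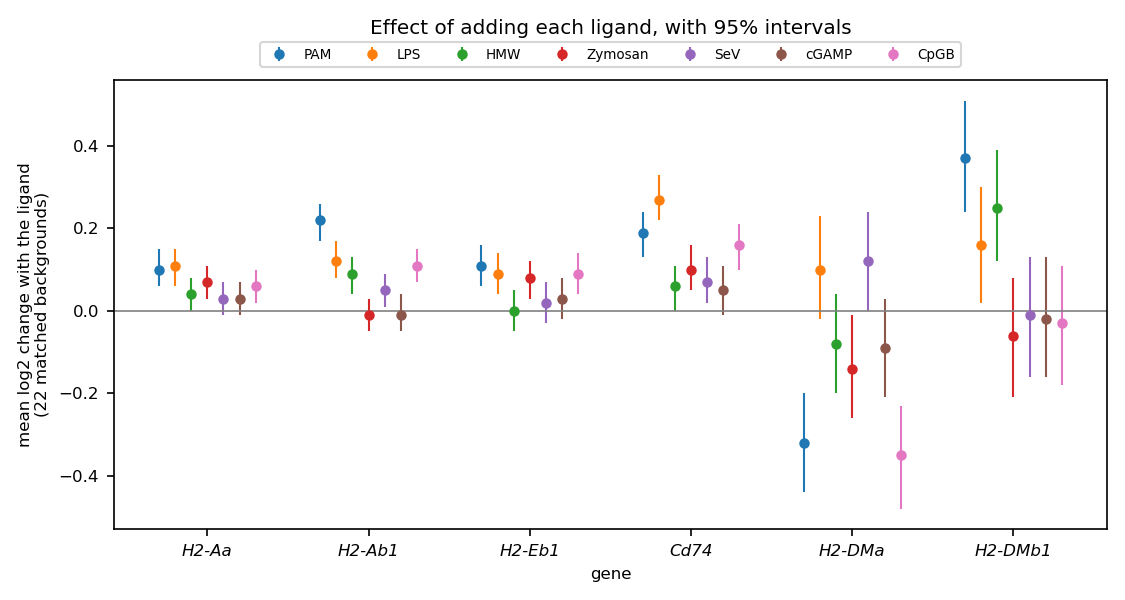
Mean log2 change with each ligand over its 22 matched backgrounds (vertical axis) for the 6 tested members (horizontal axis), coloured by ligand; bars are 95% intervals from the edgeR fit. Effects on the chains and Cd74 lie between -0.01 and 0.27, and the 2 called falls are those of H2-DMa with PAM and CpGB.

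The DM genes ranged more widely over the groups than the chain genes, on far fewer UMIs. The SD of the group means was 0.317 for H2-DMa and 0.330 for H2-DMb1, and the mean SD of the 3 single libraries inside a group was 0.312 and 0.309. H2-DMa, the DM alpha chain gene, had 191, 144 and 172 CPM in Ctrl from 15, 12 and 19 UMIs. It gave 94.1, 119 and 130 CPM with PAM, 104, 110 and 109 CPM with CpGB and 87.2, 115 and 133 CPM with Zymosan, in each case below all Ctrl libraries. SeV went the other way, at 138, 236 and 295 CPM, but overlapped Ctrl. None of these passed against Ctrl alone: the log2 changes were -0.55, -0.64, -0.54 and 0.48, with adjusted p of 0.269, 0.168, 0.360 and 0.273 (edgeR).

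Averaged over backgrounds, H2-DMa fell with PAM and with CpGB. With PAM the median library stood at 119 CPM (47.9 to 206) against 144 CPM (69.2 to 295) without, and the log2 change was -0.32 (SE 0.0621, adjusted p = 3.51e-06, edgeR), lower in 15 of 22 backgrounds. With CpGB the medians were 116 CPM (45.0 to 190) and 149 CPM (61.7 to 295), a log2 change of -0.35 (SE 0.0641, adjusted p = 9.77e-07) and lower in 17 of 22. Both falls passed under all 3 scalings, from -0.32 to -0.43; after thinning to the smallest library that with CpGB was -0.17 and not called (adjusted p = 0.2, edgeR). No other ligand passed with TMM; Zymosan reached -0.14 (adjusted p = 0.0737), cGAMP -0.09, SeV 0.12 and LPS 0.10. The fall with Zymosan was called with RLE factors (-0.16), with library size alone (-0.18) and with DESeq2 (-0.16), and that with cGAMP with library size alone (-0.20).

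The falls of H2-DMa with PAM and CpGB did not add up. Over the 6 backgrounds that allow the test, the group means were 169 ± 36.8 CPM with neither ligand, 110 ± 27.3 with PAM, 111 ± 13.1 with CpGB and 122 ± 22.6 with both (SD, n = 6 group means). The interaction, the effect of both minus the sum of the 2 log2 effects, was 0.70 (SE 0.175, adjusted p = 0.000737, edgeR), and it was called in all 9 alternatives tried, from 0.56 to 0.86. It was the only positive interaction called among the members. In single backgrounds, the H2-DMa mean went with PAM from 181 to 85.6 CPM on cGAMP and from 223 to 102 CPM on SeV, while on cGAMP + CpGB it went from 93.2 to 139 CPM.

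**Figure D4:**
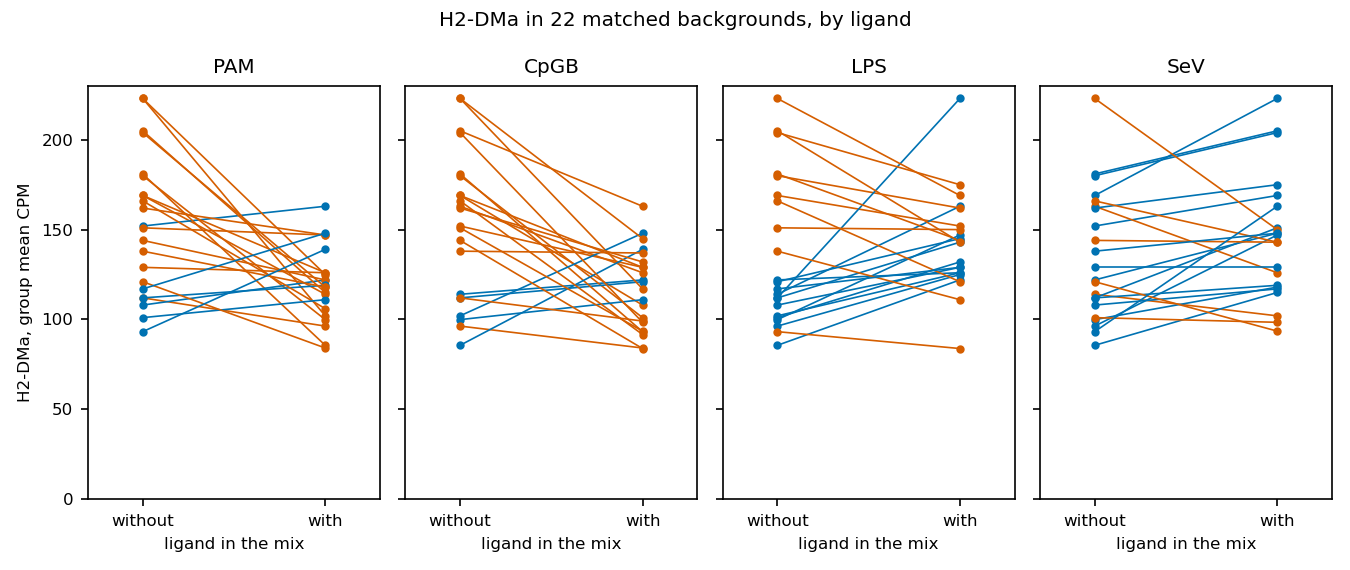
Group mean CPM of H2-DMa (vertical axis, from 0) without and with PAM, CpGB, LPS or SeV in the mix; each line joins a background to the same background with the ligand, orange where the mean is lower with it and blue otherwise. With PAM 15 of 22 lines go down and with CpGB 17 of 22.

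Against Ctrl, H2-DMa was called lower in 2 pairs and 4 triplets and higher in none, a share near the 12.0% of all gene comparisons called lower in combinations. The largest falls in the fit were with PAM + Zymosan + CpGB and PAM + cGAMP. The first stood at 112, 74.8 and 66 CPM (log2 change -1.05, SE 0.346, adjusted p = 0.0159, edgeR). The second stood at 110, 77.8 and 69.3 CPM (-1.01, SE 0.356, adjusted p = 0.0192, edgeR). cGAMP + CpGB, HMW + cGAMP + CpGB, HMW + SeV + CpGB and LPS + cGAMP + CpGB were the other 4. The last of these had the lowest group mean of all, 83.8 CPM, at a log2 change of -0.94. The count moved with the Ctrl libraries: without replicate 1 or without replicate 3 of Ctrl no combination was called, and without replicate 2 there were 5. With RLE factors it was 14 and with library size alone 23.

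H2-DMb1, the DM beta chain gene, was called higher where it was called at all against Ctrl. Ctrl gave 50.8, 12.0 and 63.5 CPM, from only 4, 1 and 7 UMIs. PAM gave 125, 95 and 86.5 CPM, above all Ctrl libraries, with a log2 change of 1.19 (SE 0.412, adjusted p = 0.0308, edgeR), the only called change of at least 2-fold that a single ligand made in any member. Without replicate 2 of Ctrl, the library with 1 UMI, it was 0.75 (adjusted p = 0.306), and without replicate 1 of Ctrl or of PAM it was 1.31 and 1.02 (adjusted p = 0.0515 and 0.118). cGAMP (105, 103 and 70.8 CPM) and CpGB (114, 80.1 and 77.2 CPM) also cleared Ctrl but missed the threshold, at 1.05 and 0.96 (adjusted p = 0.0728 and 0.110).

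Among the combinations H2-DMb1 was called higher in 3 pairs and 11 triplets and lower in none. Of all gene comparisons in combinations 17.6% were called higher and 12.0% lower. Each called rise of H2-DMb1 was at least 2-fold, but at SEs of 0.377 to 0.425 changes well below 2-fold could hardly pass. The largest rise was with PAM + HMW + SeV, at 109, 140 and 137 CPM, a log2 change of 1.56 (SE 0.377, adjusted p = 0.000297, edgeR). With RLE factors 5 combinations were called and with library size alone 2. Without replicate 2 of Ctrl 1 combination was called, without replicate 3 there were 20, and PAM + HMW + SeV passed in all 11 alternatives that tested it (1.11 to 2.06). The lowest group was Zymosan + cGAMP + CpGB, at 50.0, 8.37 and 53.7 CPM, which overlapped Ctrl.

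Over matched backgrounds H2-DMb1 rose with PAM by 0.37 (SE 0.0695, adjusted p = 1.37e-06, edgeR; 19 of 22 backgrounds), with HMW by 0.25 (SE 0.0697, adjusted p = 0.00543; 17 of 22) and with LPS by 0.16 (SE 0.0719, adjusted p = 0.0442; 17 of 22). The medians were 86.6 CPM with PAM and 73.2 without, and 85.9 with HMW and 74.2 without, with overlapping ranges. The rises with PAM and HMW passed under all 3 scalings and that with LPS only under TMM. The rise with HMW was as large but not called without the libraries numbered 2 or those numbered 3 (0.24 and 0.26, adjusted p = 0.0613 and 0.117, edgeR). With HMW, 1.42% of all genes were called against Ctrl and 10.8% in the averaged fit.

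Which of the other interactions were called depended on the scaling. Of 126 averaged pair interactions 6 were called negative and 1 positive, where 7.15% and 2.95% were over all genes; with library size alone 1 was negative and 3 positive. LPS + CpGB had 3 of them: -0.35 for H2-Ab1 (SE 0.0596, adjusted p = 2.51e-07, edgeR), -0.22 for H2-Eb1 and -0.17 for H2-Aa. For H2-Ab1 the 6 background means were 1504 ± 104 CPM with neither ligand, 1786 ± 91.7 with LPS, 1779 ± 122 with CpGB and 1662 ± 94.7 with both (SD, n = 6 group means), so the mix lay below each ligand without the other. This interaction passed under all 3 scalings and with any 1 replicate number left out, but not after thinning to the smallest library, at -0.15 (adjusted p = 0.163, edgeR). That of H2-Eb1 did not pass with library size alone (-0.07) or after thinning. That of H2-Aa passed neither with RLE factors, library size alone (-0.02), DESeq2 or thinning, nor without the libraries numbered 2 (adjusted p = 0.179) or 3 (0.0759). PAM + CpGB for H2-Ab1 (-0.17) and PAM + LPS for H2-Eb1 (-0.19) passed only under TMM among the scalings; the first was lost without the libraries numbered 2 or 3 (-0.18 and -0.14) and the second without those of any 1 number (-0.22, -0.14 and -0.21). The last was cGAMP + CpGB for H2-DMb1, at -0.64 (SE 0.210, adjusted p = 0.0265), from 62.1 ± 21.8 CPM with neither to 78.4 ± 11.8 with cGAMP, 73.3 ± 10.2 with CpGB and 63 ± 16 with both; leaving out replicate number 1, 2 or 3 ended this call at changes of -0.72, -0.60 and -0.64. Computed from a pair, its 2 singles and Ctrl alone, none of the 126 interactions was called, 8 had an unadjusted p under 0.05, and 4.65% of all genes' were called.

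Ratios of 2 genes within a library do not depend on how libraries are scaled. H2-Eb1 to H2-Aa changed with no ligand, by -0.04 to 0.03 on the log2 scale (permutation test within backgrounds, two-sided, Benjamini-Hochberg over 35 tests). H2-Ab1 to H2-Aa, the 2 chains of I-A, rose by 0.11 with PAM (17 of 22 backgrounds, adjusted p = 5e-05) and fell by 0.08 with Zymosan (15 of 22, adjusted p = 0.00544), the second lost without the libraries numbered 3. After thinning to the smallest library both calls were lost; the change was 0.03 with PAM and -0.08 with Zymosan (adjusted p = 0.74 and 0.109, permutation). Cd74 to H2-Aa rose by 0.17 with LPS (20 of 22, adjusted p = 5e-05), by 0.09 with CpGB (18 of 22, adjusted p = 0.00127) and by 0.08 with PAM (19 of 22, adjusted p = 0.00556). After thinning the rises with CpGB and PAM were not called, at 0.07 and 0.02 (adjusted p = 0.443 and 0.845, permutation). The raw p of 1e-05 behind the adjusted 5e-05 is the smallest that 100000 resamples can give.

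H2-DMa to H2-Aa fell by 0.44 with PAM and by 0.42 with CpGB, each in 19 of 22 backgrounds (adjusted p = 5e-05, permutation), and by 0.22 with Zymosan (16 of 22, adjusted p = 0.00827), the last lost without the libraries numbered 2 and after thinning (-0.11, adjusted p = 0.729, permutation). H2-Aa to B2m, the light chain gene of MHC class I, fell by 0.34 with LPS (19 of 22), 0.25 with cGAMP (16 of 22) and 0.22 with SeV (17 of 22), each with an adjusted p of 5e-05 (permutation). The averaged change of H2-Aa itself with TMM was 0.11 with LPS, 0.03 with cGAMP and 0.03 with SeV. These ratios alone therefore do not show a fall of H2-Aa. In all, 11 of 35 ratio tests passed.

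**Figure D5:**
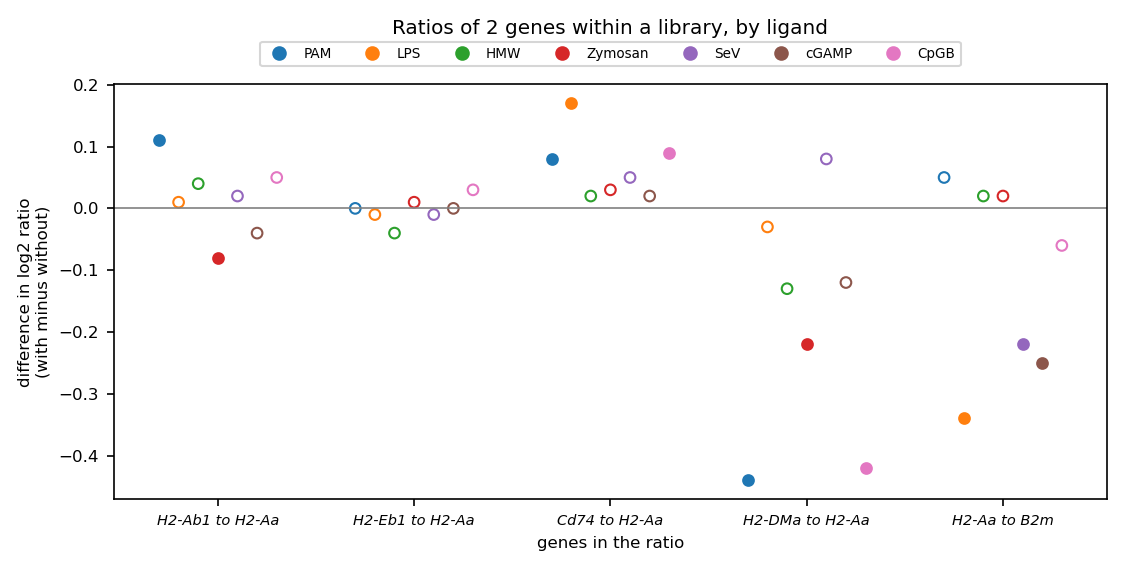
Difference in log2 ratio of 2 genes within a library, with minus without each ligand, averaged over 22 backgrounds (vertical axis), for 5 ratios (horizontal axis), coloured by ligand; filled points have an adjusted p under 0.05. H2-DMa to H2-Aa with PAM (-0.44) and CpGB (-0.42) and H2-Aa to B2m with LPS (-0.34) stand farthest from 0.

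Ciita, the class II transactivator gene, was close to the limit of detection. It had 160 UMIs in all, 0 to 6 per library, and 92 libraries held none. Over all libraries this is 4.71 CPM (exact Poisson 95% interval 4.01 to 5.50, counting error only). Ctrl held 1 UMI, and the highest mean was 14.7 CPM in LPS + SeV + cGAMP. Pooled over backgrounds it read 5.56 CPM with LPS (4.28 to 7.09) and 5.00 without (3.77 to 6.51), and 4.08 CPM with PAM (3.04 to 5.36) and 5.36 without (4.10 to 6.88). The intervals overlapped for all 7 ligands, so no change of Ciita was detectable at this depth.

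H2-DMb2 had 0 UMIs in every library, which allows a level of up to 0.0877 CPM (3 counts of 34196367), while its neighbour H2-DMb1 had 2768. In GENCODE M21 27.2% of the 50-base windows of the H2-DMb1 transcript also stand in that of H2-DMb2, and how reads that match both were assigned is not given in the sources used here. The 0 and the H2-DMb1 values are therefore uncertain as a split between the 2 genes. Other class II genes were scarce: H2-Oa had 149 UMIs, H2-Ob 61, H2-Eb2 52 and H2-Ea-ps 1, and none passed the filter.

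Several genes around the class II pathway changed by more than any chain gene. Changes here are averaged over the 22 backgrounds, and levels of Ctrl and of a ligand alone are given beside some of them. Of 17 listed promoter factors and regulators of Ciita, 11 were tested. With LPS 5 were called higher and 1 lower, with cGAMP 5 and 2, with SeV 4 and 1, with PAM 3 and 2, with CpGB 3 and 1, with HMW 2 and 0 and with Zymosan 2 and 4. The medians ran from -0.16 with Zymosan to 0.18 with CpGB, beside -0.03 and 0.00 for all genes. Of all genes 28.9% were called higher and 30.4% lower with LPS, and 27.6% and 31.1% with cGAMP. Irf8, an interferon regulatory factor of dendritic and myeloid cells, rose by 1.08 with LPS (SE 0.0486, adjusted p = 3.57e-56, edgeR), and its level was 128 ± 45.7 CPM in Ctrl and 230 ± 9.85 with LPS alone (SD, n = 3). Irf1, an interferon regulatory factor that can drive Ciita, rose by 1.05 with cGAMP over backgrounds, and its level was 101 ± 23.2 CPM in Ctrl and 600 ± 32.6 with cGAMP alone (SD, n = 3), a wider gap than the averaged change. Prdm1, which encodes Blimp-1, a repressor of Ciita, rose by 0.79 with PAM (adjusted p = 3.89e-08). The receptor chains for interferon gamma parted with LPS, where Ifngr1 fell by 0.92 and Ifngr2 rose by 0.36; with cGAMP Ifngr1 fell by 0.82 and Ifngr2 by 0.76. Irf2 rose by 0.61 with SeV and 0.47 with cGAMP and fell by 0.27 with Zymosan.

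Of 19 listed genes of peptide processing and class II traffic, 16 were tested. PAM called 5 higher and 9 lower, LPS 7 and 6, SeV 7 and 2, cGAMP 7 and 5, Zymosan 6 and 3, CpGB 4 and 7 and HMW 4 and 1, with medians from -0.14 with PAM to 0.07 with SeV, where all genes had -0.01 and -0.04. The shares of all genes called higher and lower were 20.4% and 19.5% with PAM, 20.8% and 16.7% with SeV, 21.3% and 20.2% with Zymosan, 20.6% and 16.4% with CpGB, and 9.03% and 1.80% with HMW. Cd83, which protects surface class II from turnover, rose by 0.95 with LPS (SE 0.0608, adjusted p = 3.76e-36, edgeR). March1, the ubiquitin ligase that marks class II molecules for degradation, fell by 0.88 with cGAMP over backgrounds (SE 0.0778, adjusted p = 1.52e-22), although cGAMP alone read 62.9 ± 10.7 CPM against 32.0 ± 21.2 in Ctrl (SD, n = 3). The protease genes split: Ctsc rose by 0.70 with LPS and fell by 0.44 with Zymosan, Ctsl rose by 0.48 with Zymosan, although Zymosan alone read 342 ± 63.0 CPM of Ctsc against 271 ± 121 in Ctrl and 997 ± 133 CPM of Ctsl against 1199 ± 124 (SD, n = 3). Ctsd fell by 0.54 with LPS over backgrounds, and its level was 12103 ± 736 CPM in Ctrl and 6014 ± 366 with LPS alone (SD, n = 3), again a wider gap.

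Markers of dendritic cells were uneven. Itgax stood at 396 ± 34.2 CPM in Ctrl and Csf2ra at 813 ± 224, while Zbtb46 and Cd209a were at 0 in the Ctrl libraries and Flt3 at 4.24 ± 7.34 (SD, n = 3). Batf3 and Irf4, transcription factors of conventional dendritic cells, stood at 71.8 ± 17.3 and 25.3 ± 11.8 CPM (SD, n = 3). Macrophage markers were strong, with Csf1r at 1619 ± 115 CPM and C1qb at 728 ± 91.9 in Ctrl. B cell markers, of which Pax5 was at 0 in every library, summed to 0 to 17.7 CPM over groups, and those of T and NK cells to 0 to 2.82 CPM. Neutrophil markers summed to 553 to 816 CPM in the Ctrl libraries, with S100a9 at 302 ± 67.2 and S100a8 at 175 ± 50.9 (SD, n = 3). Of the 6 tested neutrophil genes 4 were called higher and 1 lower with LPS, beside 28.9% and 30.4% of all genes. Group sums of the list ran from 636 to 931 CPM with LPS and from 512 to 902 without it. The 4 plasmacytoid dendritic cell markers summed to 38.1 to 60.0 CPM in the Ctrl libraries, and over groups to 113 to 217 CPM with LPS and 20.1 to 197 without, and 55.1 to 196 with CpGB and 20.1 to 217 without. Its 1 tested gene, Tcf4, rose by 0.92 with LPS, 0.78 with cGAMP, 0.58 with SeV and 0.36 with CpGB. It was called lower with Zymosan (-0.26) and was not called with PAM (0.13) or HMW (0.10). Tcf4 had 4128 UMIs over all libraries, and the other genes of the list had 35 to 89 each. The part of these 2 lists in the rises of Cd74 was not tested.

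The macrophage list moved with most ligands. With PAM 5 of its 7 tested genes were called lower and Cd14 higher, where 19.5% and 20.4% of all genes were. Group sums of the list were 2532 to 4627 CPM with PAM and 2282 to 3436 without. With CpGB 3 were lower and 2 higher, beside 16.4% and 20.6% of all genes. The sums were 2170 to 4048 CPM with CpGB and 2282 to 4627 without. Csf1r, the receptor of the macrophage growth factor, fell by 0.34 with PAM and 0.53 with CpGB, and Mrc1, the mannose receptor, by 0.56 and 0.51. Of the list, Mertk had a Ctrl level of 0. With LPS 5 were lower and 1 higher, beside 30.4% and 28.9% of all genes. Averaged over groups the sum of the list was 3300 CPM with PAM and 2866 without, and 2826 with CpGB and 3056 without. It was 2606 with cGAMP and 3205 without, 2625 with LPS and 3170 without, and 2716 with Zymosan and 3149 without. Their part in the fall of H2-DMa was not tested.

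Over the 64 group means H2-Aa followed Cd74 (Pearson r = 0.70, Spearman rho = 0.67), H2-Eb1 (0.70 and 0.63) and H2-Ab1 (0.69 and 0.65), and less closely H2-DMb1 (0.61 and 0.58), while H2-DMa ran against it (-0.26 and -0.16). The groups share ligands and the scaling of their libraries, so these are descriptions. Outside the members the closest patterns over the 64 groups included those of Plek (Pearson r = 0.71), Psmb6 (0.70), Atp6v1e1 (0.70) and Fabp3 (0.68). With RLE factors these 4 stood between 0.540 and 0.601 and with library size alone between 0.0705 and 0.298. The correlations between members were computed with TMM only.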

How the data were processed

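RNA of bone marrow-derived dendritic cells was reverse transcribed with template switching, pooled, tagmented and sequenced, per the labels' protocols. The authors deposited whole-number UMI counts per gene symbol, not normalized; BWA 0.7.15 and mm10 are named in the submitters' processing notes. The annotation, the collapsing of UMIs, the handling of reads matching several genes and strand are not given in the sources used here. All libraries entered 1 edgeR 4.0.16 fit in R 4.3.3 with a coefficient per group, TMM factors and filterByExpr (4720 of 23481 genes, 95.7% of UMIs). The common biological coefficient of variation was 10.2%. Intervals are the estimate ± 1.96 SE. Group mean SDs used log2 CPM with a prior count of 2. Ratios added 0.5 to each count and were permuted 100000 times within backgrounds in Python 3.11.15; of 6 planned, H2-DMb2 to H2-DMb1 could not be computed. DESeq2 1.42.0 was an alternative, without independent filtering. The tests were tried on simulated data.

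Poisson intervals and floors cover counting error only. Named genes were all 8 members, B2m, up to 3 rising and 3 falling genes of each pathway list by largest averaged effect, and the 5 genes most like H2-Aa, of which 1 is not reported here. Members, lists and tests were chosen with earlier results of these data known.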

Additional observations from a re-analysis of the deposited data

How the results depend on the processing

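Leading counts are of calls among the 6 tested members. With RLE factors, the rises against Ctrl went from 4 to 0 for single ligands and from 134 to 23 for combinations, the falls in combinations from 6 to 14 and the negative averaged interactions from 6 to 3. With library size alone the single-ligand calls were 0 higher and 1 lower, the combinations 3 higher and 26 lower, the averaged ligand effects 6 higher and 9 lower (20 and 2 with TMM) and the averaged interactions 3 positive and 1 negative. DESeq2 gave 0 rises with single ligands, 22 rises and 13 falls in combinations and 2 negative averaged interactions. Without the filter on low counts no fall was called in combinations. Thinned to the smallest library, the counts were 0 higher and 1 lower for single ligands, 0 higher and 26 lower for combinations, 4 rises and 3 falls for averaged effects, 4 positive and 0 negative for averaged interactions, 1 positive pair interaction against Ctrl alone and 6 of 35 ratios (11 otherwise); H2-DMb1 could not be tested there. With a log2 change of at least 1 required, 1 single-ligand rise, 14 rises and 2 falls in combinations, and 0 averaged effects or interactions remained in the count. With each ligand's and the Ctrl libraries alone there were 2 rises and 1 fall. Leaving out 1 replicate number, or 1 Ctrl replicate where that applies, gave 2 to 6 single-ligand rises, 53 to 170 rises and 0 to 5 falls in combinations, 12 to 24 averaged rises and 3 to 5 negative averaged interactions. The causes were not tested.

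Effects called under neither TMM nor the alternative also turned, as did some called rises in combinations with library size alone, which are not listed. Among single-ligand effects, averaged effects and averaged interactions called with TMM or under the alternative, directions turned as follows. With library size alone the averaged change was -0.00 for H2-Aa with PAM and with LPS, -0.01 with CpGB and -0.09 with cGAMP, -0.02 for H2-Eb1 with LPS and -0.08 with cGAMP, and -0.06 for Cd74 with cGAMP. After thinning it was -0.02 for H2-Aa with LPS, -0.09 with SeV and -0.00 with CpGB, -0.01 for H2-Ab1 with LPS and -0.03 for Cd74 with SeV; against Ctrl it was -0.02 for H2-Aa with cGAMP and -0.10 for H2-Ab1 with LPS, and the averaged interactions of PAM with LPS on H2-Eb1 and of PAM with CpGB on H2-Ab1 became 0.01 and 0.02. The averaged rises of H2-Ab1 with PAM and of Cd74 with LPS and CpGB and the fall of H2-DMa with PAM passed in all 10 alternatives run for each, and that of H2-DMb1 with PAM in all 9; the fall of H2-DMa with CpGB passed in all but the thinned libraries (-0.17, adjusted p = 0.2, edgeR).

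Same-numbered libraries shared only a number: the correlations of their deviations from the group means ran from -0.294 to 0.179 over 2016 pairs of groups (median 0.00817). With the replicate number as a block the calls were 4 higher and 0 lower for single ligands, 147 and 6 for combinations, 21 and 2 for averaged effects, and 1 positive and 8 negative for averaged interactions. Depth limits Ciita, H2-DMb2 and the DM genes, which had 1 to 19 UMIs in a Ctrl library.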

Other observations

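The steadiest abundant genes other than the members were a mixed company. Over the 64 group means, 2 of the 774 genes with at least 200 CPM had a lower SD than H2-Aa: Chi3l3 (0.0806 on the log2 CPM scale), a chitinase-like gene of alternatively activated myeloid cells, and Rpl15 (0.0963), a ribosomal protein gene. Between H2-Aa and H2-Eb1 stood Gabarap, Rpl7, Gnas, Myl12a, Apoe, Arpc5, Ddx5, Eef1a1 and Capns1, from 0.0987 to 0.112. The list was chosen by rank after the values were seen.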
